A study of Macaca fascicularis and Macaca mulatta and Papio anubis with 20 samples.

Results

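Genes of the endothelium, the cell layer that lines blood vessels, were followed through spatial transcriptomes of primate dorsal root ganglia. The set held 9 named genes (PECAM1, CDH5, ESAM, TIE1, FLT1, KDR, VWF, EMCN and EGFL7), taken by symbol from the feature lists. All 9 were among the 22000 features of the Macaca fascicularis sections. In the sections labelled Macaca mulatta 8 of 9 were found by symbol among 20842 features, VWF not being matched, and in the sections labelled Papio anubis 9 of 9 were found among 21369 features.

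Dorsal root ganglia hold the cell bodies of the sensory neurons that serve the body wall, limbs and viscera. They were measured by Visium, which captures RNA from a section on a grid of barcoded spots and counts molecules by a unique molecular identifier (UMI). One spot may cover several cells of more than 1 type. Of the 20 sections, 16 were M. fascicularis, as 4 title codes with 4 sections each: a female and a male in batch 1 and another female and male in batch 2. The remaining sections, 2 labelled M. mulatta and 2 labelled P. anubis, came under 1 title code each, all batch 2, with no sex given. Every section was 10 µm thick, with sections 100 µm apart, and was permeabilised for 12 minutes. No label gave an age, genotype or treatment. Each title code was taken as 1 specimen, which the labels do not state, so the M. fascicularis tests had 4 specimens and 2 per batch.

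The M. fascicularis sections held between 1136433 and 7073134 UMIs under tissue, and the median UMIs per spot ran from 398 to 5145 over the 15 sections analysed spot by spot. The third section of the batch 2 male was not analysed by spot here and entered through its table of gene totals. Levels are given as UMIs per 1000000 UMIs under tissue (CPM). A list of neuron genes summed to at least 24329 CPM in all 16 M. fascicularis sections and to 31723 and 45587 CPM in those labelled P. anubis. In the sections labelled M. mulatta it summed to 15606 and 7088 CPM, beside 14508 and 26883 CPM of fibroblast genes. Gene identifiers ran against the species names in the other sections: those labelled M. mulatta carried ENSPANG identifiers and those labelled P. anubis carried ENSMMUG identifiers. The labelled names are used below as labels only. Between 1.92% and 17.9% of the UMIs of a section fell on spots off the tissue, and there the summed CPM of the 9 genes was 1.05 times that under tissue at the median section (range 0.828 to 3.04), so part of the counts in any spot may come from free RNA, a share that was not tested.

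Endothelial cells form the inner wall of arteries, capillaries and veins, and in larger vessels they are wrapped by smooth muscle, in small ones by pericytes. In a dorsal root ganglion the vessels around the neuron cell bodies are known to be more permeable than those of the nerve trunk, whose endothelium takes part in a blood-nerve barrier. PECAM1, CDH5 (VE-cadherin) and ESAM are adhesion proteins of the junctions between endothelial cells. FLT1 and KDR are receptors of vascular endothelial growth factor, and TIE1 belongs to the receptor system of the angiopoietins. VWF is a clotting factor stored in endothelial cells, EMCN is a surface sialomucin, and EGFL7 encodes a secreted protein of the vessel matrix that endothelial cells make during angiogenesis.

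The 9 genes gave 16664 UMIs in the 16 M. fascicularis sections. EGFL7 alone gave 9356, which is 56.1% of them, and VWF gave 3285, or 19.7%. The junction genes PECAM1, ESAM and CDH5 gave 1341, 1063 and 806 UMIs. EMCN gave 567 and TIE1 gave 216. The growth factor receptors had few counts, with 28 UMIs of FLT1 and 2 UMIs of KDR. These are shares of captured 3′ ends and do not rank transcript levels per length. A sum over the 9 genes is therefore mostly a reading of EGFL7, and FLT1 and KDR failed the filter on low counts, so that tests below cover 7 of the 9 genes.

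The summed level was similar in the 4 specimens. It was 286 ± 63.8 CPM (SD, n = 4 sections) in the batch 1 female and 264 ± 20.2 CPM in the batch 1 male. In batch 2 it was 236 ± 12.5 CPM in the female and 316 ± 92.9 CPM in the male. The 16 sections lay between 199 and 436 CPM with a median of 261, and the section ranges of neighbouring specimens overlapped.

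Among the junction genes, PECAM1 read 57.8, 15.2, 16.6 and 17.1 CPM in sections 1 to 4 of the batch 1 female and 34.8, 31.2, 22.6 and 15.1 CPM in the batch 1 male. In batch 2 it read 20.5, 19.8, 15.5 and 16 CPM in the female and 14.9, 21.0, 40.0 and 19.4 CPM in the male. All 4 specimens overlapped, and one section of the batch 1 female stood far above the other 3. CDH5 read 19.3, 10.3, 20.3 and 19.2 CPM in the batch 1 female and 13.0, 16.3, 30.4 and 16 CPM in the batch 1 male. In the batch 2 female it read 4.18, 4.28, 3.86 and 3.32 CPM, below every other section, and in the batch 2 male 12.4, 9.46, 9.38 and 13.2 CPM. The order of the means was batch 1 male, batch 1 female, batch 2 male, batch 2 female, and only the last step had no overlap of sections. ESAM read 29.2, 16.1, 21.4 and 24.8 CPM in the batch 1 female and 24.0, 23.5, 21.8 and 17.4 CPM in the batch 1 male. In batch 2 it read 11.9, 11.2, 7.24 and 10.7 CPM in the female and 10.3, 14.7, 15.8 and 7.92 CPM in the male. Every batch 1 section was above every batch 2 section for ESAM, a separation shared by 5.95% of all genes compared. No member separated all 8 female from all 8 male sections, which 0.0404% of genes did.

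TIE1 read 3.11, 1.64, 6.67 and 4.86 CPM in the batch 1 female and 4.69, 3.30, 6.45 and 6.64 CPM in the batch 1 male. It read 0.697, 0.891, 0.966 and 1.17 CPM in the batch 2 female and 1.24, 1.58, 3.95 and 2.64 CPM in the batch 2 male, again with the batch 2 female lowest and without overlap with the batch 2 male. FLT1 did not pass 1.24 CPM in any of the 16 sections, and KDR was at 0 in 14 of them. Neither receptor allows its levels to be ordered among the specimens.

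VWF and EGFL7 did not share the lower batch 2 values of CDH5, ESAM and TIE1. VWF read 77.0, 22.7, 42.3 and 60.1 CPM in the batch 1 female, 43.1, 48.9, 36.0 and 24.6 CPM in the batch 1 male, 57.9, 62.4, 52.4 and 56.1 CPM in the batch 2 female and 56.5, 85.6, 144 and 90.6 CPM in the batch 2 male. The batch 2 male had the highest mean, 94.2 CPM, but its lowest section lay inside the range of the batch 1 and batch 2 females. EGFL7 was the steadiest of the well counted genes, with all 16 sections between 118 and 213 CPM, a 1.81-fold range. Its specimen means were 148, 143, 142 and 166 CPM. EMCN ran the other way, at 24.2, 6.55, 18.4 and 14.8 CPM in the batch 1 female and 10.5, 9.91, 11.3 and 11.7 CPM in the batch 1 male against 2.32, 4.10, 2.90 and 3.13 CPM in the batch 2 female and 3.42, 7.35, 8.89 and 2.64 CPM in the batch 2 male. Fewer endothelial cells under a section and less RNA per cell cannot be told apart in any of these levels.

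**Figure D1:**
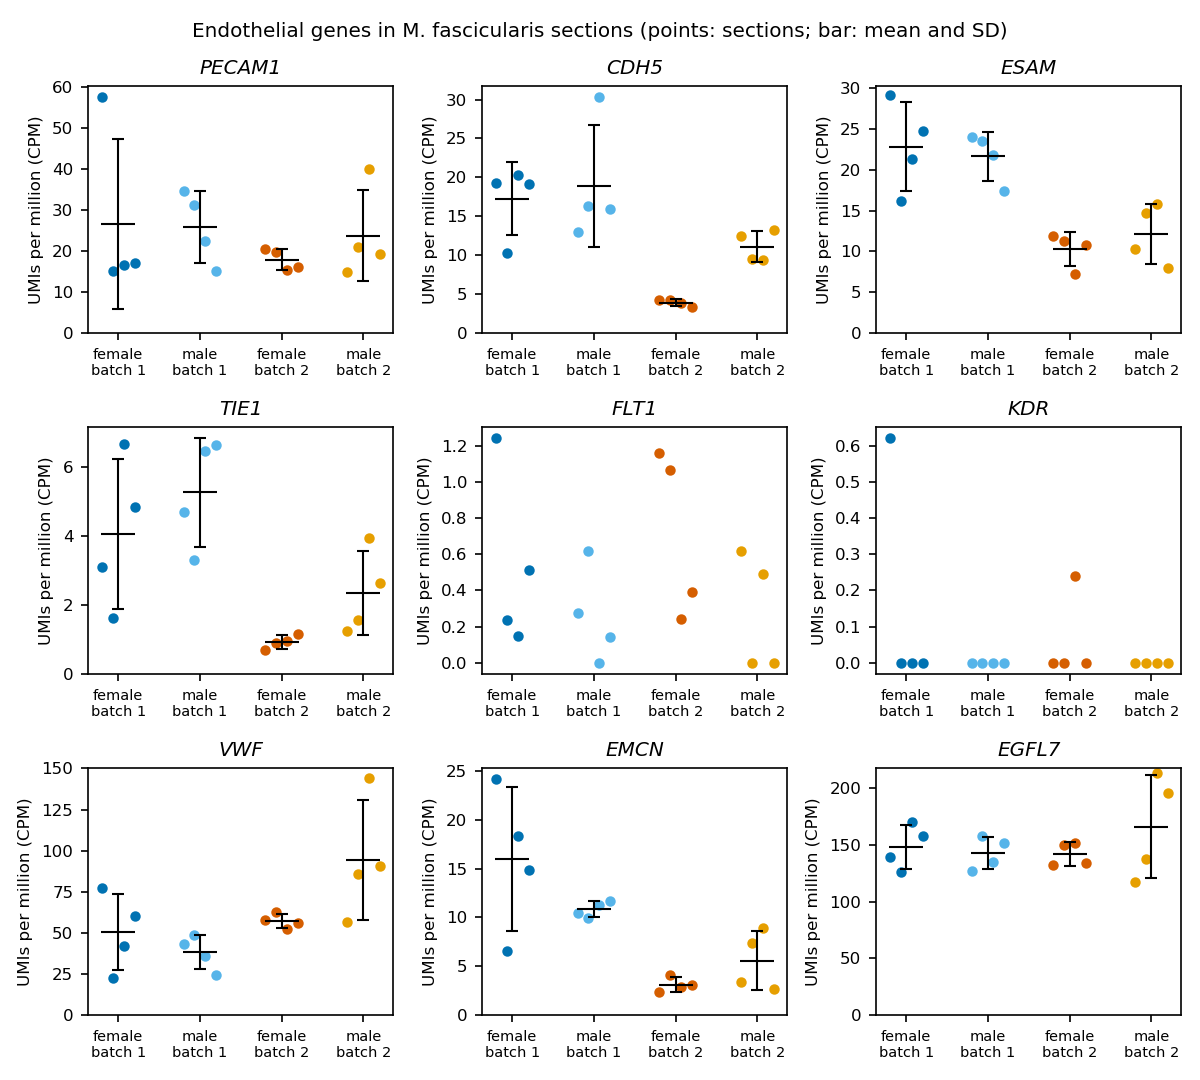
CPM of each gene in every M. fascicularis section, in 4 specimens of 4 sections (points), with mean and SD (black) except for FLT1 and KDR, which have few UMIs. ESAM, CDH5, TIE1 and EMCN have lower means in batch 2, while EGFL7 stays between 118 and 213 CPM throughout.

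Batch 2 was set against batch 1 with UMIs summed per specimen and the sex label as a covariate. In the M. fascicularis sections that name it, the version of the counting software, Space Ranger, changed with the batch. Batch and version therefore cannot be told apart in this comparison. None of the 7 genes tested passed an adjusted p of 0.05 in the quasi-likelihood test of edgeR (Benjamini-Hochberg adjustment), where 364 of 12650 genes (2.88%) did, 1.26% higher and 1.61% lower in batch 2. At an unadjusted p under 0.05 the count was 5 of 7, beside 18.9% of all genes, and DESeq2 and limma-voom each called 0 of them. VWF was higher in batch 2 by 0.94 on the log2 scale (SE 0.25), which edgeR's test gave an adjusted p of 0.0994. CDH5 was at -1.31 (SE 0.39, adjusted p 0.129 in the same edgeR test), EMCN at -1.51 (SE 0.41, 0.105), TIE1 at -1.68 (SE 0.50, 0.129) and ESAM at -0.80 (SE 0.29, 0.185). EGFL7 was at 0.11 and PECAM1 at -0.01. The median over the 7 genes was -0.80, against -0.01 over all genes tested.

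The batch result depended on what counted as a sample. With the 16 sections as samples, 5 of the 7 genes passed edgeR's test, VWF higher and CDH5, EMCN, ESAM and TIE1 lower in batch 2, but there 40.7% of all genes passed, and sections of a specimen are not separate animals. Between the specimens, leaving out section 1 of the batch 1 female gave 1 call among the members (VWF, with 5.36% of all genes called) and leaving out its section 4 gave 3 (VWF, CDH5 and EMCN, with 7.55%), while leaving out any other section gave 0. Other markers moved with batch: pericyte genes summed to 88.5 and 82.2 CPM in the batch 1 specimens and 18.5 and 32.8 CPM in those of batch 2, and fibroblast genes to 6282 and 5340 CPM against 3336 and 2244 CPM. The myelin list summed to 6237 and 5826 CPM in batch 1 against 2317 and 3409 CPM in batch 2. Immune genes summed to 2467 and 2253 CPM against 1432 and 1170 CPM. Satellite glia genes went the other way, with 4850 and 4635 CPM against 5780 and 8876 CPM. The part of these markers in the endothelial values was not tested.

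Other vascular genes changed between the batches by edgeR's test. Of 18 tested genes in a list of further endothelial genes, 2 rose and 1 fell in batch 2, with a median log2 fold change of -0.64. ENG, a co-receptor of the TGF-beta family, rose by 2.77 (SE 0.46, adjusted p 0.0240 in edgeR's test), from 1.45 and 1.25 CPM to 11 and 6.52 CPM. ACKR1, a chemokine-binding receptor of venules and red cells, rose by 1.84 (SE 0.25), from 51.3 and 41.9 CPM to 125 and 189 CPM. CAVIN2, a component of caveolae, fell by 2.25, from 40.5 and 30.0 CPM to 10.7 and 3.98 CPM. Of 16 genes of VEGF, angiopoietin and Notch signalling, the growth factor VEGFB rose by 4.17 (SE 0.45, adjusted p 0.00521 in edgeR's test), from 1.15 and 0.415 CPM to 16 and 8.81 CPM. ANGPTL4, a secreted inhibitor of lipoprotein lipase, fell by 1.82.

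Between females and males, 0 of 7 members and 0 of 12650 genes passed the quasi-likelihood test of edgeR (Benjamini-Hochberg adjustment) (169 genes, 1.34%, at an unadjusted p under 0.05, and 0 genes by DESeq2 or limma-voom). The percentage called was thus 0. With sections as samples 0.075% of genes passed, and 0 of the 7 members. CDH5 was furthest from 0, at -0.68 on the log2 scale (SE 0.39, adjusted p 0.998 in edgeR's test), and the other 6 genes lay between -0.58 and 0.04. In simulated counts of this comparison the test recovered 31% of 2-fold and 77% of 4-fold changes.

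Spots were then ranked by UMIs of a marker list, and the richest 25% were set against the rest, specimen by specimen. The ranking was made within 10 depth classes of each section, so that both classes had like UMI totals, and the list genes were left out of the fit. Levels are CPM over the remaining UMIs in 18594 spots with at least 200 UMIs.

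Smooth muscle genes marked spots with more endothelial transcript. In the 25% of spots richest in contractile genes, most of whose UMIs came from MYL9, TAGLN, ACTA2 and TPM2, the quasi-likelihood test of edgeR (Benjamini-Hochberg adjustment) called 6 of the 7 tested members higher and none lower. Of 11337 genes 7.67% passed, 5.38% higher and 2.28% lower. The median over the 7 genes was 0.81 on the log2 scale, against -0.00 over all genes tested. CDH5 had 28.5 CPM in the rich and 13.6 CPM in the other spots of the batch 1 female, and 40.1 against 10.8 CPM in the batch 1 male. In batch 2 it had 6.20 against 3.12 CPM in the female and 12.6 against 11.3 CPM in the male. It was higher in the rich spots of all 4 specimens, by 1.28 on the log2 scale (SE 0.15, adjusted p 6.78e-08 in edgeR's test).

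PECAM1 had 38.2 against 14.0 CPM and 41.5 against 18.3 CPM in the female and male of batch 1, and 23.8 against 15.6 CPM and 22 against 15.9 CPM in those of batch 2. Its rich spots were higher in 4 of 4 specimens, by 1.01 on the log2 scale (SE 0.11, adjusted p 2.14e-08 in edgeR's test). VWF had 72.9 against 34.6 CPM and 65.8 against 26.4 CPM in batch 1, and 80.4 against 48.9 CPM and 90.5 against 62.1 CPM in batch 2. Again all 4 specimens had the higher value in the rich spots, by 0.92 (SE 0.08, adjusted p 8.13e-11 in edgeR's test). EMCN rose by 0.81 (SE 0.14) with CPM ratios of 1.82, 1.69, 1.86 and 1.98 in the batch 1 female, batch 1 male, batch 2 female and batch 2 male. ESAM rose by 0.76 (SE 0.12) with ratios of 1.78, 2.17, 1.29 and 1.00, so its rise was not seen in the batch 2 male.

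EGFL7 rose by 0.23 (SE 0.05, adjusted p 0.000717 in edgeR's test), from 147 to 170 CPM and from 136 to 174 CPM in batch 1 and from 134 to 164 CPM and from 136.5 to 139 CPM in batch 2. With DESeq2 its adjusted p was 0.0599, the only call of the 6 lost under the alternatives run. TIE1 was at 0.45 (SE 0.26, adjusted p 0.350 in edgeR's test), with 42 and 61 UMIs in rich and other spots of the batch 1 male and 2 and 7 UMIs in those of the batch 2 male. Without the batch 1 male it was at -0.086. FLT1 had 9 UMIs in rich and 17 in other spots over the 4 specimens, and KDR had 0 and 2.

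The rise with smooth muscle was larger in batch 1 than in batch 2 for 2 genes. The difference between batches (batch 2 minus batch 1, an interaction term added after the data were seen, called for 1.62% of genes with smooth muscle, 0.157% with neurons and 0.439% with myelin, no member among the latter sets) was -0.52 on the log2 scale for VWF (SE 0.12, adjusted p 0.0026 in edgeR's test) and -0.71 for PECAM1 (SE 0.19, adjusted p 0.0124). CDH5 was at -0.90 (adjusted p 0.0651) and ESAM at -0.70 (adjusted p 0.0846) in the same edgeR test. The summed smooth muscle list was itself lower in batch 2, at 346 and 316 CPM against 633 and 471 CPM. The rich class was not alike in the batches: its median list UMIs per spot were 3 to 6 in the batch 1 sections, 2 to 3 in those of the batch 2 female and 1 in those of the batch 2 male. The part of this in the difference was not tested.

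Genes of other vessel-wall and stromal cells were higher in the same spots by edgeR's test. Of 18 further endothelial genes, 12 rose and 0 fell with a median of 0.70 on the log2 scale. ERG, a transcription factor of endothelial cells, rose by 1.33 (SE 0.27). Of 15 genes of VEGF, angiopoietin and Notch signalling 4 rose and 0 fell, among them ANGPT2, the angiopoietin released by activated endothelium, by 1.86 (SE 0.35), and VEGFC, a growth factor of lymphatic vessels, by 1.48 (SE 0.31). Of 4 pericyte genes 3 rose, and 8 of 8 fibroblast genes rose with a median of 0.82. The part of these other cell types in the endothelial values was not tested.

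**Figure D2:**
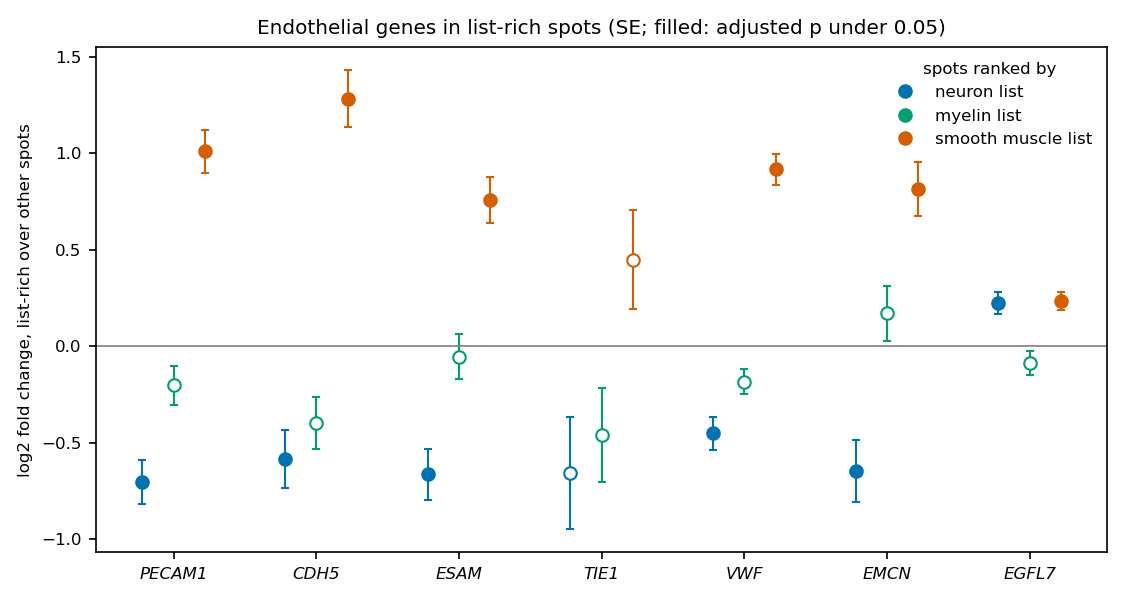
Log2 fold change of 7 endothelial genes between list-rich and other spots, with its standard error, for spots ranked by neuron, myelin or smooth muscle genes (edgeR, 4 specimens as blocks). Filled points passed an adjusted p of 0.05: with smooth muscle 6 of 7 are filled and above 0, with neurons 5 are filled below 0 and EGFL7 is filled above 0.

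Neuron genes marked spots with less endothelial transcript, EGFL7 apart. In the 25% of spots richest in neuron genes such as the neurofilaments, the quasi-likelihood test of edgeR (Benjamini-Hochberg adjustment) called 5 of 7 members lower and 1 higher. In that comparison 33.4% of 11436 genes passed, 17.1% lower and 16.3% higher. The median over the 7 genes was -0.64 on the log2 scale, against -0.03 over all genes tested. Genes of other cells fell there too by edgeR's test. Of fibroblast genes 8 of 8 fell (median -0.74), of myelin genes 11 of 12 (-0.63) and of smooth muscle genes 6 of 7 (-0.89). Of 10 immune, 5 pericyte and 9 satellite glia genes, 8, 3 and 4 fell, with medians of -0.37, -0.60 and -0.20. None of these genes rose past the threshold, while the 1 platelet gene tested rose. The lower level was thus not particular to endothelial genes.

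PECAM1 had 11.8 CPM in the neuron-rich spots of the batch 1 female against 24.4 CPM in the others, and 17.6 against 27.9 CPM in the batch 1 male. In batch 2 it had 12.3 against 20.9 CPM in the female and 15.6 against 18.9 CPM in the male. It was lower in 4 of 4 specimens, at -0.70 on the log2 scale (SE 0.12, adjusted p 1.81e-05 in edgeR's test). VWF had 32.5 against 51.1 CPM and 28.1 against 41.5 CPM in batch 1, then 44.2 against 65.3 CPM and 69.5 against 72 CPM in batch 2, at -0.45 (SE 0.08, adjusted p 9.26e-05 in edgeR's test). ESAM fell by 0.66 (SE 0.13), with CPM ratios of 0.552, 0.571 and 0.587 in the batch 1 female, batch 1 male and batch 2 female and of 1.22 in the batch 2 male. The batch 2 male thus went against the other 3 specimens for ESAM.

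EMCN fell by 0.64 (SE 0.16) and was lower in 4 of 4 specimens, with ratios from 0.562 to 0.710. CDH5 fell by 0.58 (SE 0.15), with a ratio of 0.475 in the batch 1 male and 1.07 in the batch 2 female. DESeq2 did not call either gene, with adjusted p of 0.0815 for EMCN and 0.152 for CDH5. Without the batch 1 male, CDH5 was at -0.30 with an adjusted p of 0.263 in edgeR's test. Without the batch 1 female, EMCN was at -0.56 with an adjusted p of 0.0686, and with the richest 10% of spots in place of 25% (30.6% of all genes called) it was at -0.56 with 0.0575. TIE1 was at -0.66 (SE 0.29, adjusted p 0.0820 in edgeR's test), with few UMIs behind it.

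EGFL7 was the one member higher in neuron-rich spots. It had 189 CPM there against 148 CPM in the other spots of the batch 1 female, 165 against 145 CPM in the batch 1 male, 150 against 146 CPM in the batch 2 female and 151 against 137 CPM in the batch 2 male. The log2 fold change was 0.22 (SE 0.06, adjusted p 0.00362 in edgeR's test), and without the batch 1 female it was 0.15 with an adjusted p of 0.112. The sum of the other 8 genes went from 144 to 85.6 CPM and from 135 to 83.4 CPM in batch 1 and from 108 to 70.8 CPM and from 122 to 112 CPM in batch 2. The difference between EGFL7 and the other 8 on the log2 scale was 0.73 ± 0.37 (SD, n = 4) in neuron-rich spots and had the same sign in 4 of 4 specimens, with an exact two-sided permutation (sign-flip) p of 0.125. In smooth muscle-rich spots it was -0.63 ± 0.28 (SD, n = 4), with EGFL7 the less raised in 4 of 4 and an exact p of 0.125. This is the smallest p that 4 specimens allow, and the comparison was added after the values were seen.

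Of the 18 further endothelial genes, 10 fell and 0 rose in neuron-rich spots by edgeR's test, with a median of -0.60 on the log2 scale. PTPRB, the phosphatase known as VE-PTP, fell by 1.11 (SE 0.37), and CLEC14A, a surface lectin of endothelial cells, fell by 0.71 (SE 0.19). Of 14 signalling genes 5 fell and 1 rose. VEGFB fell by 0.77 (SE 0.22), and PGF, a ligand of FLT1, rose by 0.27 (SE 0.09).

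Myelin genes, the products of the Schwann cells that wrap axons, separated the members little. None of 7 passed the quasi-likelihood test of edgeR (Benjamini-Hochberg adjustment) between the 25% of spots richest in myelin genes and the others, where 7.96% of 11391 genes passed, 3.72% higher and 4.24% lower. At an unadjusted p under 0.05 there were 2 of 7, near the 20.4% of all genes, and DESeq2 called 0. CDH5 was the lower of those, at -0.40 on the log2 scale (SE 0.13, adjusted p 0.0812 in edgeR's test), with ratios of 0.674, 0.812, 0.617 and 1.09 in the batch 1 female, batch 1 male, batch 2 female and batch 2 male. VWF was at -0.18 (SE 0.07, adjusted p 0.105 in edgeR's test) and lower in 4 of 4 specimens, with ratios from 0.841 to 0.952. PECAM1 was at -0.20, EGFL7 at -0.09, ESAM at -0.05, TIE1 at -0.46 and EMCN at 0.17. The median of -0.18 stood beside 0.00 for all genes tested.

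The myelin result turned with the way spots were ranked. When the 25% of spots with the highest myelin share were taken over a whole section, with no regard to depth, VWF rose by 0.87, PECAM1 by 0.74 and CDH5 by 0.67, and these 3 of 7 passed edgeR's test where 33.4% of all genes did. Summing per section with the section as block gave 2 calls, VWF and CDH5, both lower, where 14.9% of all genes passed. Of the further endothelial genes, PALMD rose by 0.56 (SE 0.12) and RAMP2, the partner of the adrenomedullin receptor, rose by 0.25 (SE 0.07). SLC2A1, a glucose transporter on the same list, fell by 0.38 (SE 0.08). No gene of the signalling list passed.

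Depth itself ordered the sum of the 8 members other than EGFL7. With each section's spots divided into 5 depth classes, this sum fell from the shallow to the deep classes, though not at every step. In the second class it was 240 CPM in the batch 1 male and 324 CPM in the batch 2 female, above the shallowest class. In the shallowest class these 8 genes summed to 264 and 234 CPM in the female and male of batch 1. They summed there to 275 and 268 CPM in the female and male of batch 2. In the deepest class they summed to 86.2, 69, 54.1 and 89.6 CPM. Between the same classes EGFL7 went from 145 to 152 CPM and from 124 to 140 CPM in batch 1 and from 188 to 125 CPM and 187 to 129 CPM in batch 2. The neuron list went up from 16455 to 40165 CPM and from 15061 to 38461 CPM in batch 1, and from 15015 to 40126 CPM and from 20114 to 29729 CPM in batch 2. The smooth muscle list went down from 1611 to 179 CPM and from 1642 to 139.5 CPM in batch 1, and from 2181 to 115 CPM and from 1030 to 103 CPM in batch 2. In all 4 specimens deep spots were thus richer in neuron and poorer in smooth muscle transcript and in that of the 8 genes.

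Across 5 classes of spots ranked by each list within depth, the summed CPM of the 9 genes followed smooth muscle most. From the lowest to the highest smooth muscle class it went from 216 to 389 CPM in the batch 1 female, from 213 to 403 CPM in the batch 1 male and from 207 to 301 CPM in the batch 2 female. In the batch 2 male it went from 267 to 293 CPM, with 228 CPM in class 4 of 5. Spots of this male outside the richest 25% had a median of 0 smooth muscle list UMIs in every section. Many spots were thus tied, and the lower smooth muscle classes were in part not ordered by the list. The same median was 0 in the batch 1 male and in most sections of the batch 2 female. Ranked by neuron genes, the lowest class held the highest value in all 4 specimens, 326, 358, 286 and 279 CPM, against 269, 250.1, 215 and 260 CPM in the highest. Ranked by myelin genes it went from 306 to 244 CPM and from 266 to 261 CPM in batch 1, and from 269 to 205 CPM and from 268 to 244 CPM in batch 2. Between the 25% of spots richest in myelin genes and the rest, the batch 2 male had a ratio of 1.05.

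**Figure D3:**
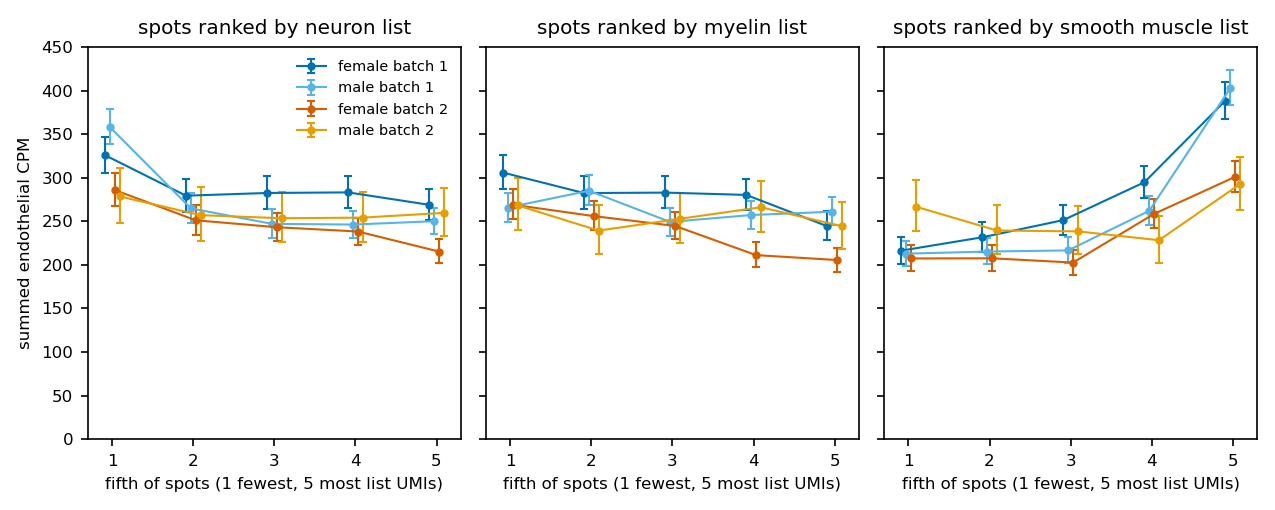
Summed CPM of the 9 endothelial genes in 5 classes of spots ranked by neuron, myelin or smooth muscle UMIs within depth classes, for 4 M. fascicularis specimens (lines), with exact 95% Poisson intervals that cover counting error only. In the smooth muscle panel the highest class lies at 389, 403, 301 and 293 CPM, above the lowest class of the same specimen. Many spots there tied at 0 list UMIs, so the lower classes are in part not ordered by the list.

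The 2 sections labelled P. anubis were sorted the same way and have no replicate specimen, so no test was made. In section 2, with 2532 spots, VWF had 24.9 CPM (95% exact Poisson interval 19.7 to 31.0) in smooth muscle-rich and 9.72 CPM (7.83 to 11.9) in other spots. PECAM1 had 25.8 CPM (20.6 to 32.0) against 15.5 CPM (13.1 to 18.2). EGFL7 had 127 CPM in the rich and 126 CPM in the other spots. In neuron-rich spots EGFL7 had 159.5 CPM (146 to 173) against 122 CPM (114 to 129), while the other 8 genes had 44.1 CPM (37.4 to 51.7) against 61.9 CPM (56.7 to 67.4). Ranked by myelin, EGFL7 had 104 CPM (93.4 to 116) against 135 CPM (127 to 143), and VWF 6.96 CPM (4.41 to 10.4) against 16 CPM (13.6 to 18.8). Section 1 held 65 UMIs of the 9 genes in 787 spots, too few to compare.

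Levels in the other labelled species were set beside M. fascicularis over 13088 genes shared by the 3 annotations, which leaves VWF out. EGFL7 was alike, at 237 and 259 CPM in the sections labelled M. mulatta and 208 and 234 CPM in those labelled P. anubis, within the 181 to 335 CPM of M. fascicularis. CDH5, between 5.39 and 46.9 CPM in M. fascicularis, had 2 UMIs in section 2 labelled P. anubis, which is 0.294 CPM (95% exact Poisson interval 0.0356 to 1.06). KDR went the other way, with 39 UMIs there, 5.73 CPM (4.08 to 7.84), while no M. fascicularis section passed 0.935 CPM. Under the M. mulatta label KDR had 4 and 5 UMIs, 41.2 CPM (11.2 to 105) and 37.0 CPM (12.0 to 86.3), and EMCN had 7 and 8 UMIs, 72.1 and 59.1 CPM against at most 36.5 CPM in M. fascicularis. Each species label rests on 1 specimen and its own annotation, so species, specimen and gene model cannot be told apart, and only 41 and 52 UMIs of the 8 genes were counted under the M. mulatta label.

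Moran's I, which measures whether neighbouring spots carry like levels, was taken from the authors' deposited tables. There, 34 of 127 member-section pairs (26.8%) had an adjusted p under 0.05 in M. fascicularis, beside 16.2% of all gene-section pairs. VWF passed in 10 of 16 sections with a median I of 0.0345, EGFL7 in 8 with a median of 0.0232, and PECAM1 in 5 with a median of 0.0063. CDH5 passed in 4, ESAM in 3, EMCN and TIE1 in 2 each, and FLT1 (13 sections listed) and KDR (2 listed) in none. The highest values in the authors' deposited tables were 0.165 and 0.148 for VWF, in section 2 of the batch 1 female and section 2 of the batch 1 male, and 0.123 for EGFL7 in the former. That section of the batch 1 female stood apart for genes in general, with 40.6% of its genes called and 2232 of them at an I of at least 0.1.

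By the authors' deposited values, 78.9% of neuron, 71.8% of fibroblast and 59.9% of smooth muscle gene-section pairs passed, and 19.6% of the further endothelial and 10.8% of pericyte pairs. The members' 26.8% lay between these. The specimens gave 14 of 33, 12 of 31, 6 of 33 and 2 of 30 member-section pairs from the batch 1 female to the batch 2 male, on 4584, 5048, 4543 and 2489 member UMIs. Over all genes the share called per section ran from 17.5% to 40.6%, 16.1% to 21.4%, 8.30% to 14.6% and 5.42% to 22.1% in the same specimens, so it was lower in most batch 2 sections too. One of the 2 calls in the batch 2 male, EMCN in section 4, rested on 3 UMIs. With spots of the 15 sections recomputed on a log scale over the 6 adjacent spots, the summed members had an I between 0.0135 and 0.224 with a median of 0.0849. In section 2 labelled P. anubis the authors' deposited table gave VWF an I of 0.0707, PECAM1 0.0522 and EGFL7 0.0216, all past the threshold, as were 22.6% of all genes there. The other 6 members there were between -0.00057 and 0.00958 and did not pass.

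**Figure D4:**
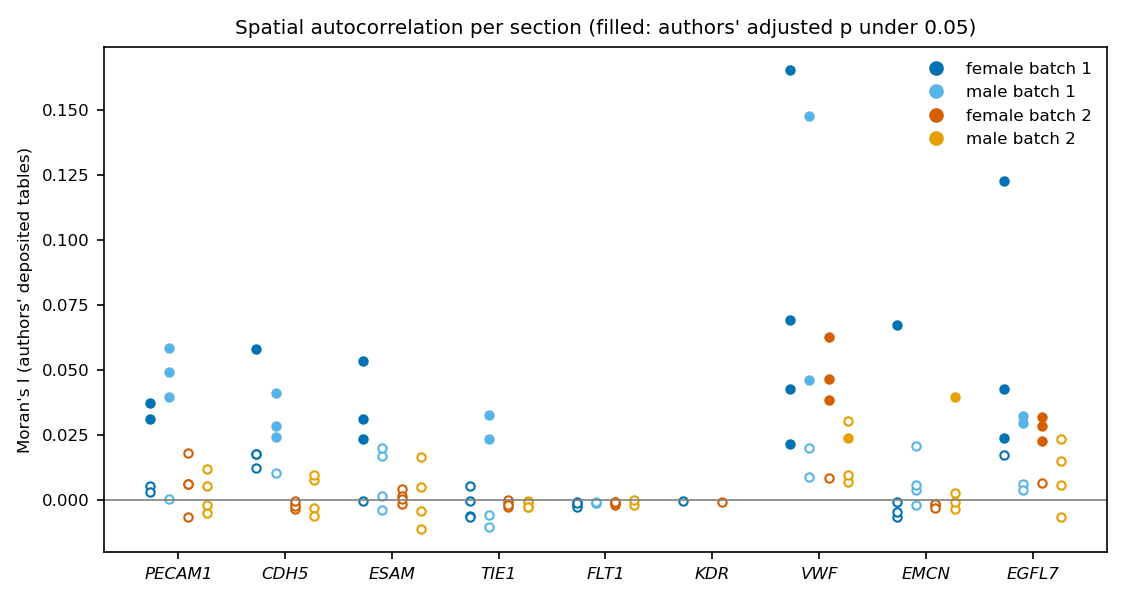
Moran's I of each endothelial gene in every M. fascicularis section in which the authors' tables list it, coloured by specimen. Filled points have the authors' adjusted p under 0.05, and VWF has the most, 10 of 16, reaching 0.165.

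Members shared spots. For each gene, CPM was compared between spots with and without a UMI of any other member, within 10 depth classes, as a description over spots that share libraries. VWF was 1.64 to 2.36 times higher in spots with another member over the 4 specimens and ESAM 1.72 to 2.34 times. PECAM1 ranged from 1.24 to 2.55 and EMCN from 1.36 to 2.12. EGFL7 had the lowest median over specimens and the narrowest range, at 1.27 to 1.39, though in the batch 2 male it was above PECAM1, EMCN and CDH5. CDH5 was above 1 in 3 of 4 specimens, reaching 2.23, and 0.927 in the batch 2 male. TIE1 had 18 UMIs or fewer in each batch 2 specimen and ran from 0.430 to 15, too wide to read.

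This sharing was mostly not seen without the depth classes. These were formed within each section, so leaving them out also pooled the sections of a specimen. The part of each was not tested. The same ratio without depth classes was 0.902 to 1.20 for VWF, 0.902 to 1.39 for PECAM1 and 0.806 to 1.13 for CDH5. EGFL7 hardly moved, at 1.16 to 1.37. The median over 7 genes and the specimens was 1.84 within depth classes and 1.06 without them.

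**Figure D5:**
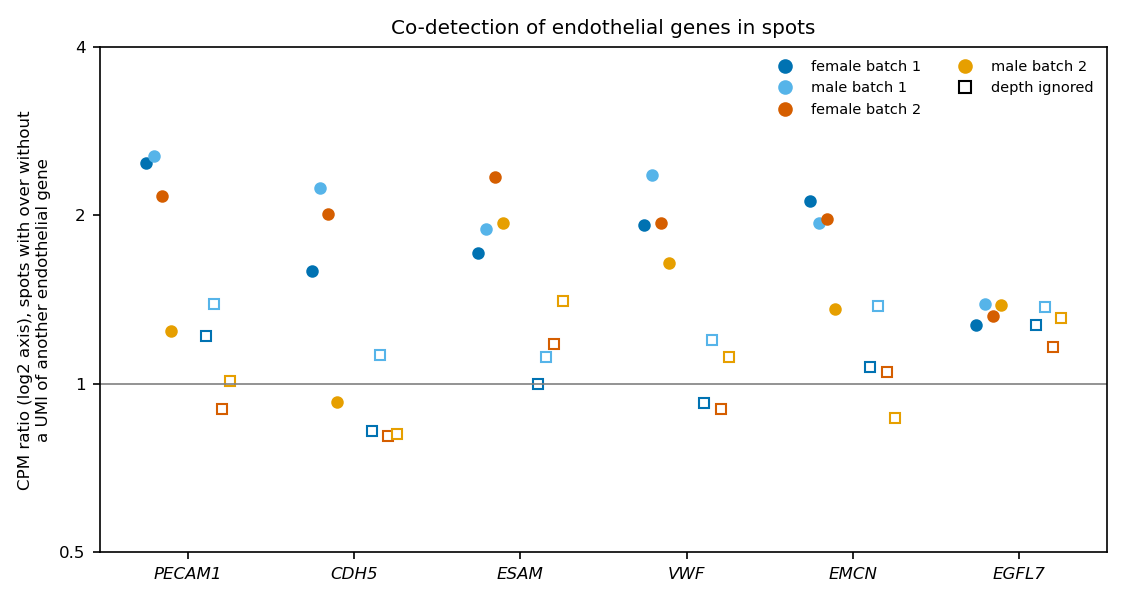
Ratio of CPM between spots with and without a UMI of another endothelial gene, on a log2 axis, for 6 genes and 4 M. fascicularis specimens (TIE1, FLT1 and KDR are left out for few UMIs). Filled circles compare spots of like depth and lie between 0.927 and 2.55, while open squares ignore depth and lie between 0.806 and 1.41.

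The genes most like the members in the spots were sought among 6723 genes with at least 100 UMIs in each specimen, by the lowest of 4 specimen ratios between spots with and without a member UMI. Of all of them 10.5% were above 1 in all 4 specimens. MGP led with ratios of 2.48, 2.29, 1.78 and 1.96. It is the matrix Gla protein, which keeps vessel walls from calcifying, and it is also on the fibroblast list. MUSTN1 followed with 2.53, 3.05, 2.28 and 1.51, then TAGLN, a contractile protein that is also on the smooth muscle list, with 2.38, 2.40, 1.40 and 1.72. TINAGL1, a matrix glycoprotein, had a lowest ratio of 1.38. SPRY1, an inhibitor of growth factor signalling, had 1.32, S1PR1, the sphingosine phosphate receptor of endothelial cells, 1.30, and the transcription factor FOSL2 1.29. The interferon-induced IFI27 had 1.26, and 2 features that the files do not pair with a symbol, ENSMFAG00000044185 and ENSMFAG00000060328, had 1.26 and 1.24.

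When spots were chosen by the 8 members without EGFL7, 8 of these 10 genes stayed among the first 10, and all 10 were above 1 in every specimen. When they were chosen by EGFL7 alone, 2 of the 10 stayed (MUSTN1 and TAGLN), and MGP ranked 23. CRIM1, a transmembrane protein that binds bone morphogenetic proteins, led with a lowest ratio of 1.30, and the neuronal gene SNCB ranked 4 with 1.24. Both choices were added after the data were seen.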

How the data were processed

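The members and gene lists were chosen with earlier results of these data known. The authors deposited UMI counts per gene and spot and, per section, a table with each gene's total count, Moran's I (a score) and its p-value and adjusted p-value; the gene totals equalled the sums over tissue spots in the 19 sections with a matrix. Space Ranger 2.0.0 (12 sections) and 2.1.0 (7 sections) are named in the file headers, and the build Mmul_10 in the submitters' processing notes. In M. fascicularis, version 2.0.0 was named for every batch 1 section. Version 2.1.0 was named for every batch 2 section of that species with a named version. How strand was counted is not given in the sources used here. No sections of a specimen agreed within sampling noise (chi-square per degree of freedom at least 3.93).

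CPM is UMIs per 1000000 UMIs under tissue. Counts were summed per specimen and tested with edgeR 4.0.16 (TMM, filterByExpr, quasi-likelihood, Benjamini-Hochberg over all genes), with specimen as block for spot classes; DESeq2 1.42.0 and limma 3.58.1 were alternatives. Nothing says that title codes are separate animals, so p-values speak for these specimens only. For batch and sex they rest on the spread between specimens. For spot classes, with specimen as block, they rest on how the class difference varied among specimens. In both, edgeR's estimate of the spread borrows from all genes. Spots with at least 200 UMIs entered. Rich spots are the 25% with the most list UMIs within each of 10 depth classes, with ties broken by a seeded random number. Ratios over spots were pooled over those classes (Mantel-Haenszel). Intervals are exact 95% Poisson. On simulated counts the batch fit found 27% of 2-fold and 80% of 4-fold changes, and the smooth muscle fit 93% and 99%.

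Besides the 9 members, the text names up to 3 genes per direction and comparison with the largest change past an adjusted p of 0.05 from the lists of other endothelial genes and of VEGF, angiopoietin and Notch signalling, and the 10 genes most like the members over spots; CRIM1 and SNCB were named after their values were seen. Lymphatic markers summed to between 15.5 and 158 CPM in the M. fascicularis sections, most of it from RELN. That gene gave 1718 of 1890 list UMIs in the batch 1 female and 220 of 343 in the batch 2 male. Platelet and red cell markers summed to at most 6.83 CPM in the M. fascicularis sections, but only 4 of the 10 listed genes were matched by symbol. No listed haemoglobin gene was matched, so this sum does not measure red cells.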

Additional observations from a re-analysis of the deposited data

Results flagged for a closer look

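PECAM1 read 57.8 CPM in section 1 of the batch 1 female, far above the other 3 sections of that specimen, and CDH5 read 10.3 CPM in its section 2, far below the others. The 32 checks covered single genes and their sum in the same 4 specimens of 4 sections each. These 2 of 32 that stood apart are near the 1 in 20 that chance gives. The smooth muscle effect differed between the batches by an interaction term in edgeR's quasi-likelihood test: by -0.52 on the log2 scale for VWF (adjusted p 0.0026) and by -0.71 for PECAM1 (adjusted p 0.0124), batch 2 minus batch 1.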

How the results depend on the processing

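Over the alternatives run, member values kept their direction and side of the threshold in 121 of 147 cases for batch, 69 of 77 for neuron-rich, 66 of 76 for myelin-rich and 75 of 77 for smooth muscle-rich spots. For batch, sections as samples called 4345 genes and 5 members, the replicate block on section number 4448 and 5, and no filter on low counts 1279 and 4; leaving out 1 section gave 115 to 942 genes, 0 to 3 members and PECAM1 at -0.21 to 0.14. For sex the block called 5 genes, sections without it 8 and no filter 67. Section numbers were not taken to pair the specimens, since deviations of same-numbered sections correlated at -0.13 to 0.47 over 24 pairs, 9 of them over 0.1; the 4 pairs within batch 1 were all over 0.1 (0.220 to 0.470). For neuron-rich spots DESeq2 called 2061 genes, and leaving out a specimen gave 2543 to 3912 genes and 4 to 6 members; the richest 10% of spots gave 5 members, EMCN being lost. For myelin-rich spots the highest share over the section called 3679 genes and 3 members (PECAM1 0.74, VWF 0.87, CDH5 0.67, ESAM 0.45, TIE1 0.77), DESeq2 320 genes, no filter 1 member, and sums per section 1520 genes and 2 members; a minimum of 500 UMIs put ESAM at 0.058, and leaving out a specimen gave 342 to 944 genes and ESAM at -0.24 to 0.053. For smooth muscle-rich spots the share choice called 2306 genes and DESeq2 262; leaving out a specimen gave 301 to 1166 genes, 6 members and TIE1 at -0.086 to 0.75. Summed CPM over features with a symbol was 354, 328, 308 and 400.2 in the batch 1 female, batch 1 male, batch 2 female and batch 2 male; without EGFL7 it was 138, 121, 94.1 and 149.5 CPM; leaving out a section gave 265 to 316, 255 to 271, 230.3 to 240.0 and 276 to 349 CPM in that order. Requiring a Moran's I of at least 0.1 left 3 pairs. Without depth classes the median co-detection ratio was 1.06. The causes were not tested. FLT1 and KDR counts are too few for any statement on direction.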
